A study of Homo sapiens with 2 samples.

Results

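Contacts of promoters were measured by promoter-capture Hi-C for 9 genes of the STAT5 pathway and its feedback loop, namely SOCS2, CISH, SOCS1, SOCS3, PIM1, JAK2, OSM, STAT5A and STAT5B. In this assay crosslinked chromatin is cut with the enzyme HindIII, neighbouring ends are ligated, and probes pull out ligated pairs that carry a promoter fragment, called the bait. A gene was measured when a listed bait fragment held either end of the gene (hg38), which was so for 7 of the 9 members. These 7 genes had 136 of the 84049 interactions listed in DMSO and 138 of the 91305 listed in ponatinib, or 186 of 138160 in the union of the lists. The cells were K562, an established chronic myelogenous leukaemia line that carries the BCR-ABL1 fusion kinase. One group received the vehicle DMSO and the other 100 nM ponatinib, a drug that blocks ABL kinases, each for 24 h. Each group was 1 library of the same line, so the differences given are between libraries and carry no p-value. The value of an interaction is the authors' score, which is at least 5 in both lists. Read depth is unknown, and the intervals given are 95% intervals that cover counting error only and treat neighbouring fragments as independent, which they are not.

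The JAK and STAT pathway carries signals from cytokine receptors to the nucleus. JAK2 is a kinase bound to such receptors, and OSM is a cytokine that signals through them. STAT5A and STAT5B are transcription factors that are phosphorylated, pair up and bind DNA at sites of the form TTCNNNGAA, and in chronic myelogenous leukaemia they are also activated downstream of BCR-ABL1. CISH, SOCS1, SOCS2 and SOCS3 are induced by STAT factors and dampen the same receptors, and PIM1 is a serine/threonine kinase gene induced by STAT5.

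The promoter of CISH is shown because it was the only member promoter to hold the STAT motif. Entries in the RefSeq promoter table (GRCh38.p14) were found for CISH, PIM1, JAK2, SOCS1, SOCS3, STAT5A and STAT5B, in 13 windows from 250 bases before to 50 bases after an annotated start. SOCS2 and OSM were not matched. The window of CISH on the minus strand (chr3:50611725-50612024) lies whole inside the bait fragment and held 4 copies of TTCNNNGAA, a motif that reads the same on both strands. They are in capitals:

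CISH: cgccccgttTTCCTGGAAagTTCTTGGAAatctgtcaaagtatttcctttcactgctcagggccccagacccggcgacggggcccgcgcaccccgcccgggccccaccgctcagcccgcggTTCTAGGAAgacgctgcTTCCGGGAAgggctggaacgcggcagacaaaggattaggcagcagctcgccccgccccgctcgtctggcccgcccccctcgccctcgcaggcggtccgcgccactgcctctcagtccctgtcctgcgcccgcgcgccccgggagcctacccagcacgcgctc

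The copies are TTCCTGGAA, TTCTTGGAA, TTCTAGGAA and TTCCGGGAA, in 2 neighbouring pairs. Of 35116 promoter windows of the same length 2689 (7.66%) held the motif at all and 7, of 6 genes, held 4 or more. The windows of PIM1, JAK2, SOCS1, SOCS3, STAT5A and STAT5B did not hold these letters, which says nothing of sites elsewhere. For comparison, the PIM1 promoter (chr6:37169902-37170201, plus strand), shown as the member whose listed contacts began nearest to its bait fragment, holds no match and reads:

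PIM1: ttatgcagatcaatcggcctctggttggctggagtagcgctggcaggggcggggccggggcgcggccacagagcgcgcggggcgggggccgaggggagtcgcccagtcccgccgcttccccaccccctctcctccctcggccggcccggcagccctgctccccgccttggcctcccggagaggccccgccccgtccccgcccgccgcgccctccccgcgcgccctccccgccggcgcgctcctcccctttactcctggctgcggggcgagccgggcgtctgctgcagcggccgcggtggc

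Members differed widely in their number of contacts, and each had a number of the same order in both libraries. SOCS2 had 46 interactions in DMSO and 51 in ponatinib, more than all but 61 of 13721 protein-coding genes with a bait fragment. JAK2 had 33 and 30, exceeded by 251 genes, and PIM1 had 30 and 26, exceeded by 363 genes. CISH had 12 and 16, with fewer in 86.8% of these genes, and SOCS1 had 9 and 11, with fewer in 78.5%. SOCS3 had 4 and 3, with fewer in 39.9%, and OSM had 2 and 1, with fewer in 14.4%. Among the 6 members that reached 5 interactions in the lists together, 0 had 2-fold more in ponatinib and 0 had 2-fold fewer, where 9.92% and 6.26% of all such genes did (log2 ratios with a pseudocount of 1). The largest ratio among these 6 was 0.39 on the log2 scale, at CISH. Over the members 50.4% of interactions were in ponatinib (44.3 to 56.4%), against 52.1% of the whole lists.

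**Figure D1:**
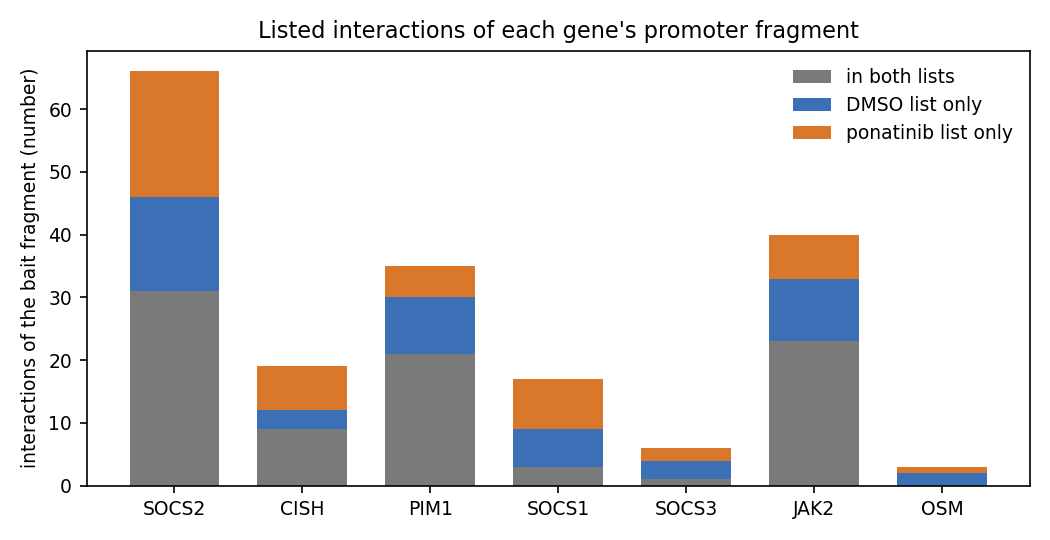
Number of listed interactions (vertical axis) of the bait fragment of each gene (horizontal axis), split into those in both lists, in the DMSO list only and in the ponatinib list only. SOCS2, JAK2 and PIM1 have 66, 40 and 35 partners over both lists, and SOCS3 and OSM have 6 and 3.

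Of the 186 member interactions 88 joined the same fragments in DMSO and in ponatinib (47.3%, 39.96 to 54.7%), where 26.9% of all interactions were shared. Of the DMSO interactions of the members 64.7% were also in ponatinib, beside 44.3% in general, and of their ponatinib interactions 63.8% were also in DMSO, beside 40.7%. PIM1 shared 21 of 35 (60%), JAK2 23 of 40 (57.5%), CISH 9 of 19 (47.4%) and SOCS2 31 of 66 (47.0%). SOCS1 shared 3 of 17 (17.6%, 3.80 to 43.4%), SOCS3 1 of 6 (16.7%, 0.42 to 64.1%) and OSM 0 of 3. The intervals of CISH (24.4 to 71.1%), SOCS1, SOCS3 and OSM (0 to 70.8%) hold the 26.9% of the whole lists. Those of SOCS2 (34.6 to 59.7%), PIM1 (42.1 to 76.1%) and JAK2 (40.9 to 73.0%) lie above it. The ponatinib score was the higher one for 49 of these 88 pairs, beside 53.6% of all shared interactions. Scores differed by at least 1.5 times in 17 shared member pairs. They were higher in ponatinib in 12 and lower in 5, where 13.7% and 8.95% of all shared interactions differed that much. Across the shared partners of a gene the scores of both lists kept much of their order. Spearman rho was 0.61 for SOCS2 (n = 31), 0.71 for PIM1 (n = 21), 0.74 for JAK2 (n = 23) and 0.58 for CISH (n = 9). The points of a gene share 1 bait fragment, the floor of 5 and the same pair of libraries.

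SOCS2, a feedback inhibitor of growth hormone and cytokine receptors, contacted a long stretch of chromosome 12 on 1 side of the gene. Its bait fragment (chr12:93569860-93572551) also holds an end of the antisense gene SOCS2-AS1, so contacts cannot be assigned to either. Of its 64 same-chromosome partners over both lists 62 lay at higher coordinates, past the far end of the gene, and none was nearer than 98.8 kb. Such a layout is common: of 1754 bait fragments with at least 20 same-chromosome partners 42% had at least 90% of them on 1 side, and 29.4% had none within 90 kb. The contacts formed blocks, taken as runs of partner fragments at most 20 kb apart. The zones described here were set after their values were seen.

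The nearest zone (chr12:93669115-93856939), 98.8 to 283 kb away, covers much of CRADD, which encodes an adaptor of death signalling, and held 22 partners in DMSO and 21 in ponatinib. Its peak was a bait fragment at 168 kb (chr12:93737250-93741520) that holds an end of CRADD-AS1 and scored 31.9 in DMSO and 35.3 in ponatinib, the highest of any member. Seen from that fragment, SOCS2 was the top of 17 partners in DMSO and of 15 in ponatinib. The bait fragment with an end of CRADD, 108 kb away, scored 11.3 and 10.9, and the fragments on either side of the peak scored 9.80 and 12.8 and 14.5 and 14.6. Shared scores in this zone went both ways, with 6 of 14 higher in ponatinib and 8 lower. The largest difference was at 205 kb, with 14.2 in DMSO and 6.75 in ponatinib.

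A zone farther out, 312 to 418 kb away, overlaps the uncharacterised genes LOC105369911 and LOC105369912 and had 11 partners in DMSO and 13 in ponatinib. Adjacent fragments at 407 and 411 kb scored 7.69 and 5.77 in DMSO and 14.6 and 11.1 in ponatinib. Another fragment beside them, at 404 kb, was in the ponatinib list only with a score of 10.1. At 415 kb the order was the other way, with 10.7 in DMSO and 7.61 in ponatinib.

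The most distant zone (chr12:94045252-94132305), 476 to 558 kb away, had 11 partners in DMSO and 15 in ponatinib, and all 9 shared ones scored higher in ponatinib. Their median score was 6.57 in DMSO and 12.2 in ponatinib. The top one, at 526 kb (chr12:94094380-94100841), scored 12.5 and 18.7, its neighbour at 530 kb 10.4 and 13.0, and the fragment at 523 kb 5.35 and 12.2. Partners with a score of at least 10 numbered 3 in DMSO and 6 in ponatinib. Of 802 blocks with 8 or more shared partners over all bait fragments, 1.25% were higher in ponatinib at every one, and of shared pairs in general 53.4% were higher there under 200 kb, 54% at 200 to 500 kb and 55.8% beyond.

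The bait fragment next to that of SOCS2 (chr12:93562694-93569859) ends 110 bases before the annotated gene start and was captured with probes of its own. It had 18 interactions in DMSO and 22 in ponatinib, and 28 of its 31 partners were also partners of the SOCS2 fragment. In the CRADD zone it had 9 partners in DMSO and 4 in ponatinib, in the middle zone 2 and 6, and in the most distant zone 6 and 11. There the fragment at 94094380 scored 7.45 and 14.98. Of its 5 shared partners in that zone 3 scored higher in ponatinib and 2 lower. Both fragments come from the same libraries, so this is no replicate, and it was chosen after the lists were seen.

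**Figure D2:**
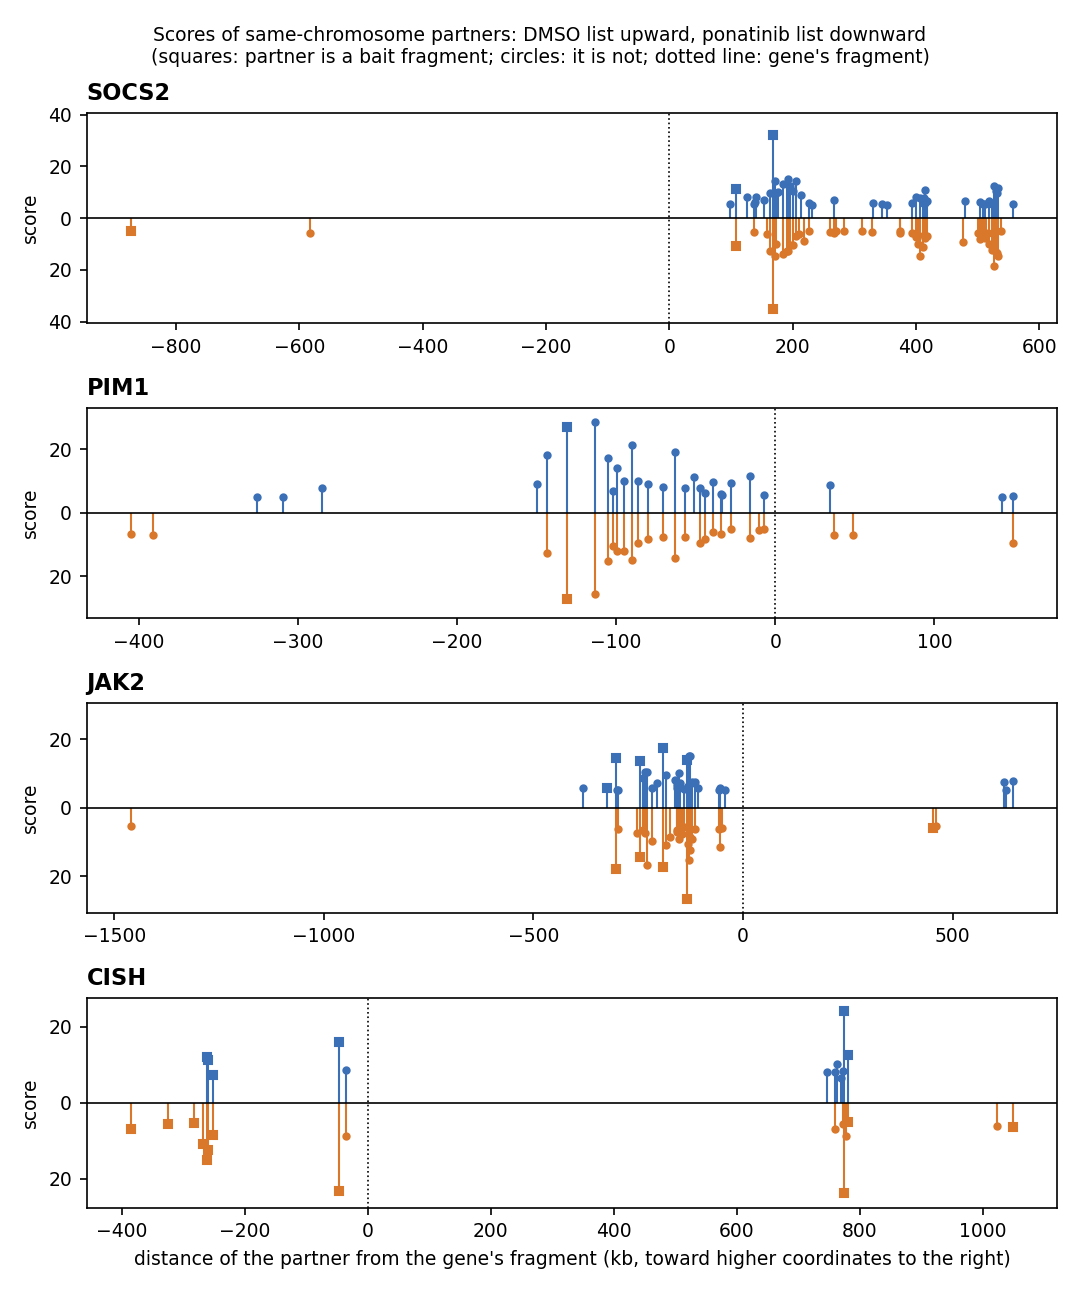
Score of each same-chromosome partner (vertical axis, DMSO list upward, ponatinib list downward) against its distance from the bait fragment of SOCS2, PIM1, JAK2 and CISH (horizontal axis, kb). SOCS2 has 3 zones on 1 side, at 98.8 to 283, 312 to 418 and 476 to 558 kb, PIM1 a run of contacts within 150 kb before the gene, and CISH contacts on both sides.

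CISH, the founding member of this family of feedback inhibitors, contacted many other promoter fragments. Its bait fragment (chr3:50609396-50613949) also holds an end of MAPKAPK3, a kinase gene of the p38 pathway. Bait fragments made up 6 of its 12 partners in DMSO and 11 of 16 in ponatinib. In the whole DMSO list the partner was a bait fragment for 25.3% of interactions scoring at least 10 and 18.0% of the rest. In the whole ponatinib list these shares were 23.4% and 17.7%. Toward lower coordinates, the fragment of HEMK1 and C3orf18 at 47.3 kb scored 16.1 in DMSO and 23.3 in ponatinib. A gene-dense cluster 252 to 282 kb away was contacted at 3 fragments in DMSO and 5 in ponatinib. In it a fragment inside NPRL2, a subunit of the GATOR1 complex that restrains mTORC1, scored 11.9 and 15.1. The adjoining fragment with ends of NPRL2 and CYB561D2 scored 11.3 and 12.4. The TMEM115 fragment scored 7.19 and 8.35.

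On the other side CISH contacted a region 746 to 780 kb away around DOCK3, MANF and RBM15B. The fragment with ends of DOCK3 and MANF, a secreted factor of the endoplasmic reticulum stress response, scored 24.0 in DMSO and 23.8 in ponatinib. CISH was the top partner of that fragment among 8 in each list. The RBM15B fragment beyond it scored 12.5 and 5.07. The region held 7 partners in DMSO and 5 in ponatinib, and a fragment with an end of MANF at 777 kb was in ponatinib only (8.84). All 5 shared partners at lower coordinates were higher in ponatinib and all 4 in the MANF region were lower. Blocks with 4 shared partners were lower at every one in 6.01% of 865 cases. The 5 at lower coordinates lay in blocks of 3 and 2, for which no such share is given. Promoters named here beyond the 3 top partners of a gene were chosen after their values were seen.

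SOCS1, the JAK inhibitor, mainly contacted CLEC16A and the genes beside it. Its bait fragment (chr16:11240719-11258766) also holds ends of LOC105371082 and of the pseudogene HNRNPCP4. Of its 15 same-chromosome partners 14 lay at lower coordinates, 13 of them in CLEC16A, a gene of mitophagy. In DMSO its scores ran from 5.15 to 7.42. In ponatinib 3 partners scored over 10, at 14.4 (146 kb away in CLEC16A), 11.7 (the fragment with ends of CIITA, the MHC class II transactivator, and DEXI, 307 kb) and 10.4 (150 kb). The first and second of these were absent from the DMSO list, and the third scored 5.15 there. The bait fragment with an end of CLEC16A, at 302 kb, scored 6.38 and 9.93, and the fragment of RMI2 at 93.2 kb scored 6.88 and 7.09. All 3 shared partners were higher in ponatinib. Of the 6 partners absent from ponatinib, 2 lay within 5 kb of a ponatinib partner, and of the 8 absent from DMSO, 5 lay that near to a DMSO partner. At scores of at least 7 SOCS1 had 1 interaction in DMSO and 8 in ponatinib, where the full lists had 9 and 11. How many genes differ as much at that cut is not given.

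SOCS3, the feedback inhibitor of gp130 receptors, had no strong partner in either list. Its fragment (chr17:78356467-78363369) also holds an end of SOCS3-DT. Scores reached 6.65 in DMSO, at a fragment in TNRC6C 267 kb away, and 6.42 in ponatinib, at LOC105371912 45.1 kb away. The 1 shared partner, in PGS1 at 59.7 kb, scored 5.29 and 5.13.

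PIM1, a kinase gene whose product promotes survival, contacted the 150 kb before its start. Its bait fragment (chr6:37168446-37174143) holds no other gene end. A single block (chr6:37017582-37167472), 6.79 to 150 kb upstream, held 23 of its 30 partners in DMSO and 21 of 26 in ponatinib, with 20 shared. The top partners were the fragment 113 kb away, which scored 28.8 in DMSO and 25.5 in ponatinib, and a bait fragment 131 kb away with the pseudogene COX6A1P2, which scored 27.2 and 27.0. Seen from the latter, PIM1 was the second of 25 partners in DMSO and the fourth of 40 in ponatinib. The fragment at the end of FGD2, a gene for an activator of the GTPase CDC42, scored 18.2 and 12.5.

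Within this block 15 of 20 shared scores were lower in ponatinib. The fragment at 89.7 kb scored 21.3 in DMSO and 14.8 in ponatinib, and that at 63.3 kb scored 19.2 and 14.1. Close to the gene, scores at 38.9 and 27.9 kb were 9.67 and 9.46 in DMSO and 5.97 and 5.13 in ponatinib. Among the 5 that were higher, the fragment at 102 kb scored 6.91 and 10.3. Blocks of 8 or more shared partners with at least 3 in 4 lower in ponatinib made up 8.1% of 802. The fragment 50.8 kb away, with 11.2 in DMSO, was absent from the ponatinib list.

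**Figure D3:**
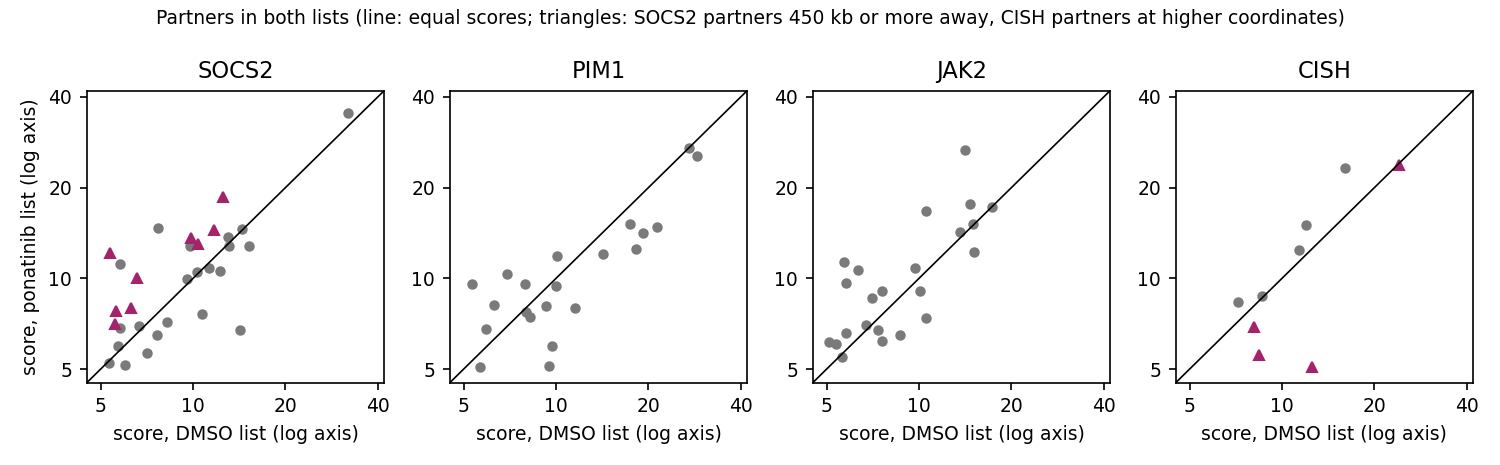
Scores in the DMSO list (horizontal, log axis) and the ponatinib list (vertical, log axis) of partners found in both, for SOCS2 (31), PIM1 (21), JAK2 (23) and CISH (9), with the line of equal scores. Triangles mark the 9 SOCS2 partners at least 450 kb away, all above the line, and the 4 CISH partners at higher coordinates, all below it.

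JAK2, the receptor kinase, mainly contacted the region before its start, and 6 of its 40 partners over both lists were bait fragments. The bait fragment (chr9:4977624-4986440) holds no other gene end, and 35 of its 40 partners over both lists lay upstream, most of them 107 to 252 kb away. Of its 23 shared partners 15 scored higher in ponatinib and 8 lower. The fragment of CDC37L1, a gene for an HSP90 cochaperone, at 302 kb scored 14.7 in DMSO and 17.7 in ponatinib. The AK3 fragment at 245 kb scored 13.6 and 14.3, and the fragment with an end of RCL1, a ribosomal RNA processing gene, at 190 kb scored 17.4 and 17.3. JAK2 was the top partner of the CDC37L1 and RCL1 fragments in both lists.

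Inside RCL1, a bait fragment 134 kb from JAK2 (chr9:4845272-4851087) carries the microRNA gene MIR101-2, and scored 14.1 in DMSO but 26.7 in ponatinib. That was the highest JAK2 score in ponatinib and, in score units, the largest difference of any shared member pair, though not the largest ratio. JAK2 was the top partner of this fragment, of 9 in DMSO and of 6 in ponatinib. The mature products of MIR101-2 are shown because this microRNA gene lies at that contact, with the seed (bases 2 to 8) in capitals, from RefSeq (GRCh38.p14, chr9:4850297-4850375, plus strand):

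hsa-miR-101-3p: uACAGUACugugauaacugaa
hsa-miR-101-2-5p: uCGGUUAUcaugguaccgaugc

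Neighbouring fragments did not all differ in the same direction. The one directly after it scored 6.31 and 10.7, the next 15.04 and 15.2, and the one after that 15.1 and 12.3. Farther from the gene, the fragment at 228 kb scored 10.5 and 16.7. On the other side of the JAK2 start 3 weak contacts, 623 to 644 kb away in the non-coding gene INCR1, were in the DMSO list only. They scored 5.33 to 7.78. The remaining partners on that side were in the ponatinib list only, the PLGRKT fragment at 452 kb (5.97) and a fragment at 461 kb (5.19).

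OSM, the cytokine oncostatin M, had 3 partners on chromosome 22 and shared none of them. Its fragment (chr22:30262289-30271030) scored 5.87 with HORMAD2 and 9.94 with RNF215 in DMSO, and 13.7 in ponatinib with a fragment in OSBP2 493 kb away. STAT5A (chr17:42287439-42311943) and STAT5B (chr17:42199177-42288370), which lie next to each other, had no listed bait fragment at a gene end. The only STAT5B start in the RefSeq promoter entries, at 42276391 and inside the gene as annotated, does lie on a listed bait fragment (chr17:42275756-42284765). That fragment had 3 interactions in DMSO and 2 in ponatinib. The shared one was with another part of STAT5B (chr17:42270288-42274853) and scored 8.64 and 7.08. A contact with the fragment of RUNDC1, 699 kb away, was in DMSO only (6.45).

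Strong partners, with a score of at least 10, were shared far more often than weak ones. Members had 38 in DMSO and 46 in ponatinib, or 27.9% and 33.3% of their interactions, where 14.9% and 16.4% of the whole lists were as strong. In DMSO 36 of 38 strong member interactions were also in the ponatinib list (94.7%, 82.3 to 99.4%), against 52 of 98 weak ones (53.1%, 42.7 to 63.2%). The difference was 41.7 percentage points (26.3 to 52.2). In ponatinib 41 of 46 strong interactions were also in DMSO (89.1%, 76.4 to 96.4%), against 47 of 92 weak ones (51.1%, 40.4 to 61.7%), a difference of 38.0 points (22.3 to 49.8). The whole lists gave differences of 46.7 and 45.6 points, so the gap is not particular to these genes. Both lists stop at a score of 5, so a weak pair drops out of a list at a smaller difference in score than a strong pair. The share of this in the gap was not tested. Weak interactions of the whole lists were shared in 37.3% and 33.3%, below the intervals of the members. By score class this held only at 5 to under 6 in DMSO (45.2%, 29.8 to 61.3%, beside 25.1%). In every other class under 10, in both lists, the wide interval of the members held the whole-list share. The share of the members was the lower one only at 8 to under 10 in DMSO (60.9% beside 61.6%). SOCS2 had 13 strong partners in DMSO and 18 in ponatinib, PIM1 10 and 9, JAK2 9 and 10, CISH 6 and 5, SOCS1 0 and 3 and OSM 0 and 1. All 13 of SOCS2 and all 9 of JAK2 in DMSO were in the other list.

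**Figure D4:**
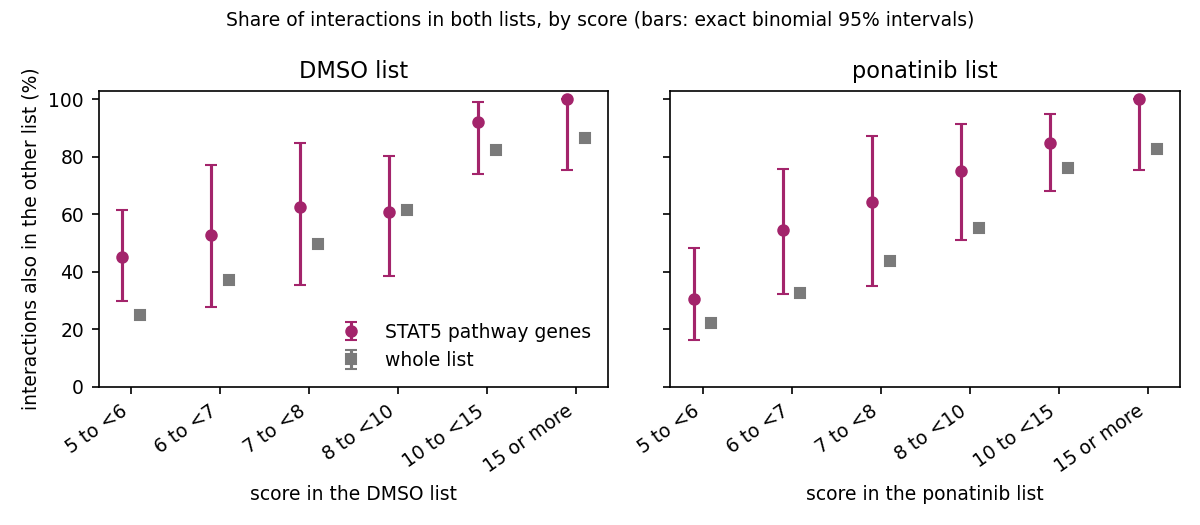
Share of interactions also found in the other list (vertical axis, percent) by score class (horizontal axis) for the STAT5 pathway genes and the whole list, with exact binomial 95% intervals. The share of the genes runs from 45.2% at scores of 5 to under 6 to 100% at 15 or more in DMSO, and from 30.6% to 100% in ponatinib.

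Partners found in 1 list only were mostly weak and often lay beside a partner of the other list. There were 48 in DMSO, with a median score of 6.23, and 50 in ponatinib, with a median of 5.99. Of these 24 and 27 lay within 5 kb of a partner of the same gene in the other list. The same share over all interactions is not given, so this cannot be called particular to these genes. Only 2 in DMSO were strong, at PIM1 (11.2) and CISH (10.1), and 5 in ponatinib, at SOCS1 (14.4 and 11.7), OSM (13.7), CISH (10.7) and SOCS2 (10.1).

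Strong partners were more often promoter fragments in DMSO. A pair of bait fragments can be listed from either end, and the higher score was kept, for members and whole lists alike. This can raise the scores of such pairs, and its share in the differences below was not tested. In DMSO the partner was itself a bait fragment for 12 of 38 strong interactions and 5 of 98 weak ones, a difference of 26.5 points (12.5 to 42.6), beside 7.26 points in the whole list. In ponatinib it was so for 13 of 46 and 12 of 92, a difference of 15.2 points (1.44 to 30.5), beside 5.69 points. CISH and JAK2 gave 9 of the 12 in DMSO and 9 of the 13 in ponatinib. Without CISH the differences were 17.5 points (4.98 to 34.6) and 12.1 points (-0.03 to 27.1), the latter interval holding 0. With strong set at a score of 7 they were 13.1 points (1.81 to 23.7) and 7.46 points (-5.99 to 19.6). At the upper quartile of each list (8.37 and 8.52) they were 16.1 points (4.46 to 29.3) and 8.67 points (-4.26 to 22.1). Strong partners also lay in runs. Another partner of the same gene lay within 1 kb of 36 of 38 strong partners in DMSO (94.7%) and of 59 of 98 weak ones (60.2%), and in ponatinib of 44 of 46 and 60 of 92. No whole-list value stands beside these shares, so the runs cannot be called particular to these genes.

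Median distances of strong and weak partners had overlapping intervals over the members. They in DMSO were 187 kb for strong and 183 kb for weak partners, and in ponatinib 187 kb (143 to 260) and 256 kb (205 to 302), a ratio of 0.730 (0.474 to 1.26, from the ends of both intervals). With strong set at a score of 7 the ratio in ponatinib was 0.643 (0.382 to 0.981), and at the upper quartile of 8.52 it was 0.680 (0.399 to 0.932). In DMSO the medians of strong and weak partners were 196 kb (172 to 526) and 353 kb (214 to 414) for SOCS2, and 97.3 kb (50.8 to 131) and 70.7 kb (34.4 to 149) for PIM1, with overlapping intervals for both genes. Partner fragments were of similar length, with medians of 3920 and 3574 bases for strong and weak partners in DMSO.

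Other genes of the pathway were taken from a list of 58 receptors, kinases, STAT factors, phosphatases, adaptors and targets. Of these 41 had a listed bait fragment and 36 had at least 5 interactions. More were in ponatinib for 23 (63.9%) and fewer for 9 (25%), beside 51.1% and 37.6% of all genes, with a median log2 ratio of 0.26 beside 0.08 over all genes. There were 2 with 2-fold more, OSMR, the receptor of OSM, with 3 in DMSO and 7 in ponatinib, and SOCS6 with 5 and 11. There were 0 with 2-fold fewer. Over all genes 9.92% had 2-fold more and 6.26% had 2-fold fewer. STAM2, a gene for an adaptor of JAK signalling, had 7 and 13. The lowest ratios were at PTPN11, the phosphatase SHP2, with 9 and 6, SHC1 with 18 and 14 and CRKL, an adaptor and substrate of BCR-ABL1, with 10 and 8. The fragments of OSMR, STAM2, PTPN11 and SHC1 also hold ends of other genes.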

How the data were processed

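Each deposited list pairs a bait fragment with a partner and gives the authors' score for the pair, with coordinates on hg38 per the submitters' processing notes. Not given in the sources used here: aligner, caller, definition and threshold of the score. No score was rescaled between lists.

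Pairs were unordered and shared when both fragments were identical. Where a pair of bait fragments was listed in both orientations, the higher score was kept. Distance ran between midpoints. Genes came from RefSeq (GRCh38.p14), and a gene took every listed bait fragment holding either of its ends. Intervals are Clopper-Pearson for shares, Newcombe for differences and order statistics for medians. Strong meant a score of at least 10, and a 2-fold call needed 5 interactions and used a pseudocount of 1. The code was tested on simulated data, and run with Python 3.11.15, pandas 2.3.3, scipy 1.17.1 and statsmodels 0.14.6.

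The members and lists were chosen with earlier results of these data known. Named were the members, genes on their fragments and on the 3 top partners of each, and the 3 highest and 3 lowest ratios of the pathway list. Alternatives were higher score floors, lists of equal length, same-chromosome pairs, gene ends within 1 kb, partners matched within 5 or 10 kb, other settings of strong and of the 2-fold call, and members left out.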

Additional observations from a re-analysis of the deposited data

How the results depend on the processing

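Over the results for the members as a group, 54 of 61 alternative values lay within the 95% interval of the reported one or, for counts, within 1.5 times it, and 7 did not. These intervals are wide: the excess of promoter fragments among strong partners fell within them from 26.5 to 13.1 points in DMSO and from 15.2 to 7.46 points in ponatinib with strong set at a score of 7. No member differed 2-fold in number of interactions as reported. At a score of at least 7 there was 1, SOCS1 with 1 and 8 interactions, and in lists of equal length there was 1, SOCS3 with 4 and 1. No share over all genes is given at these 2 settings, so it is not known whether such calls are common there. The share of member interactions found in both lists was 55.6% at a score of at least 10. It was 74.7% with partners matched within 5 kb and 76.3% within 10 kb, since looser matching pairs neighbouring fragments. Shares of the whole lists at these settings are not given. With matching within 5 kb strong partners exceeded weak ones in sharing by 24.5 points in DMSO and 21.7 points in ponatinib. Of 38 values for single genes 35 met the same bar, which is loose for small numbers: the share of SOCS3 interactions in ponatinib was 42.9% as reported and 20% in lists of equal length. Settings chosen after the data were seen were the bait fragment at an inner STAT5B start, members without CISH, and the rank of a score within its list in place of the score. By that rank 43 of 88 shared member interactions were higher in ponatinib in place of 49, while all 9 in the distant SOCS2 zone were. No paired analysis was possible because there was 1 library per group. Treatment and library cannot be told apart, and read depth is unknown.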
